A study of Mus musculus with 12 samples.

Results

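Vehicle-treated fibroblasts from the hindlimb muscles of newborn mice are described here as they stood without any steroid treatment, across all genes. They were chosen by their label: of the 12 libraries in the series, the 4 whose treatment is vehicle were used, and the aldosterone and spironolactone libraries were left out. The cells came from wild-type C57 BL/10 mice at postnatal day 3, were enriched by adherence to plastic, not sorted, and were used at passage 2. They grew in DMEM with 10% FBS, were moved to charcoal-stripped serum 24 hours before treatment, and received DMSO for 48 hours, so every value below is from cells in stripped serum and solvent. The labels give 2 mice and 2 plates for each mouse and treatment, and name the libraries 1_1, 1_2, 2_1 and 2_2, with the first digit a sample number. They do not say whether that digit is the mouse. Poly(A) RNA was sequenced.

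Fibroblasts build and remodel the matrix between muscle fibers. They secrete fibrillar collagens, fibronectin and small proteoglycans, and fold and crosslink the collagens with dedicated enzymes. In muscle the same cells are known as fibro-adipogenic progenitors, and after injury some become myofibroblasts that carry contractile actin.

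Levels are given in 2 scales. A normalized count is the number of reads on a gene divided by a size factor for its library, as the authors deposited it. The level per kilobase, called TPM below, is the normalized count divided by the gene length in the same table and scaled to the same total in each library, and it is the scale on which genes are compared with each other. The libraries held between 19136812 and 28631000 reads on genes. A gene with 3 reads or fewer was taken as at the floor, which is between 2.52 and 3.66 normalized counts. Of 27319 genes in the table, 16028 were over the floor in all 4 libraries and 1273 had no read in any of them. Between any 2 libraries the log2 levels of those 16028 genes had a Pearson correlation of 0.991 to 0.995, as a description across genes, which are not replicates and share the annotation and the library method.

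The label held against its markers. *Col1a1*, the major chain of type I collagen, stood at 14110, 13527, 13876 and 15221 TPM in libraries 1_1, 1_2, 2_1 and 2_2. *Col3a1*, type III collagen, stood at 1803, 1843, 1948 and 2019 TPM. *Postn*, the matricellular protein periostin, was at 352, 337, 283 and 284 TPM. *Thy1*, a surface glycoprotein of mesenchymal cells, was at 151, 152, 112 and 118 TPM, and *Pdgfra*, the receptor used to mark fibro-adipogenic progenitors, at 51.2, 46.4, 54.0 and 53.4 TPM. All of these markers were far above the floor in every library. The levels spanned a wide range, from rank 3 among all genes for *Col1a1* to rank 3441 for *Pdgfra*. Between the sample numbers, *Col1a1*, *Col3a1* and *Pdgfra* did not pass the test (edgeR adjusted p of 0.763, 0.367 and 0.404), while *Postn* and *Thy1* were lower in sample 2, with log2 fold changes of -0.32 and -0.43 (edgeR adjusted p of 0.00118 and 0.000156).

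A small number of genes held much of the RNA. The 10 genes with the largest normalized counts took 12.8% ± 0.209 of the library (SD, n = 4), the largest 100 took 27.6% ± 0.250, and 655 genes together held 50% of all normalized counts. Per kilobase, the largest 10 held 10.6% ± 0.264, the largest 100 held 28.6% ± 0.143, and 501 genes held 50%. The lists at the top were nearly the same in each library: 19 genes were among the largest 20 by TPM in all 4 libraries, and 22 genes were among them in at least 1. The scale mattered more than the library, since 11 of the 20 largest genes by normalized count were also among the 20 largest by TPM.

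By normalized count the first place went to *Thbs1*, thrombospondin 1, an adhesive glycoprotein that activates latent TGF-beta. Its normalized counts were 653370, 645739, 538076 and 583075, a mean of 605065 ± 54647, or 2.56% of all reads. *Col1a1* followed with 570625 ± 22132, then *Fn1*, fibronectin, with 500055 ± 16911, and *Col1a2*, the second chain of type I collagen, with 373198 ± 26171. *Lox*, the enzyme that starts collagen crosslinks, was next with 223421 ± 28883 normalized counts. The other genes of the 20 with a matrix product were *Sparc*, *Col12a1*, *Bgn*, *Col3a1*, *Col5a1*, *Col5a2*, *Timp2* and *Hspg2*. The long genes of this set moved down when length was taken out. *Col12a1*, with 15228 bases of exon, went from rank 10 to rank 72, and *Hspg2*, perlecan, with 14739 bases, from rank 19 to rank 152. Short genes moved up, such as *Rplp1*, a protein of the ribosomal stalk with 499 bases, from rank 58 to rank 6.

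**Figure D1:**
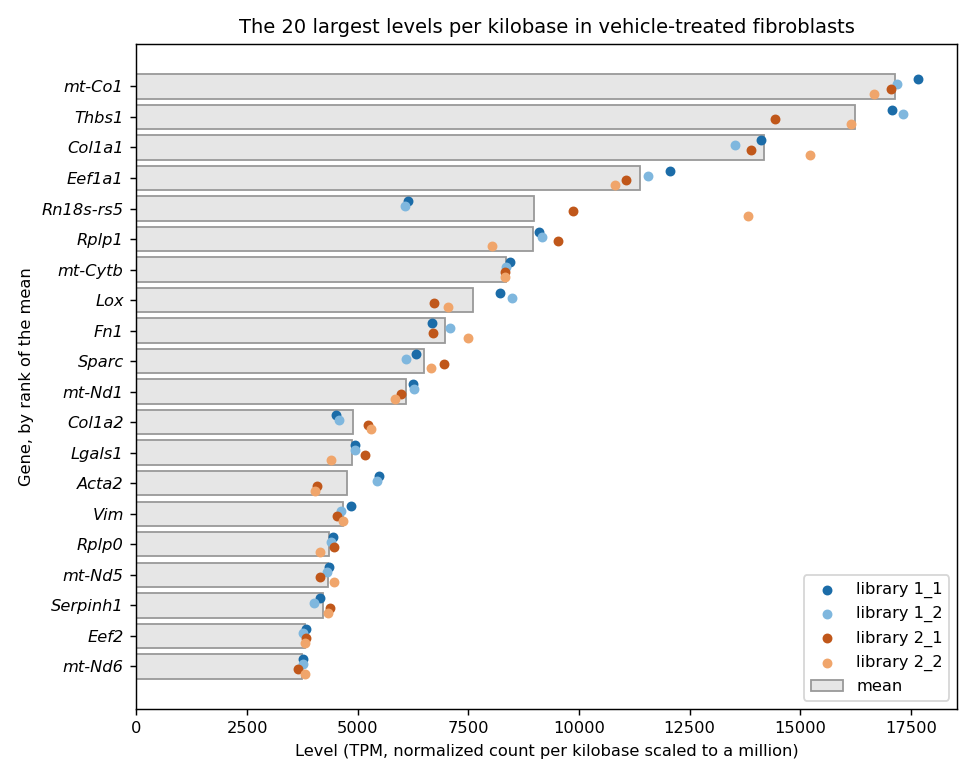
Horizontal axis: level in TPM on a linear scale from 0, for the 20 genes with the largest mean; grey bars are means and points are the 4 vehicle libraries. *mt-Co1* leads at 17141 TPM, and *Rn18s-rs5* is the gene whose libraries lie farthest apart, from 6062 to 13812 TPM.

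Per kilobase, *mt-Co1* (cytochrome c oxidase subunit 1, encoded in mitochondria) led with 17141 ± 411 TPM, followed by *Thbs1* with 16237 ± 1309 and *Col1a1* with 14184 ± 732. The next was *Eef1a1*, the factor that brings aminoacyl-tRNA to the ribosome, with 11369 ± 552 TPM. Of 20 neighbouring pairs in this order, the ranges over libraries did not overlap in 4. *Col1a1* lay above *Eef1a1* in every library, *mt-Nd1* above *Col1a2*, *Vim* above *Rplp0* and *Serpinh1* above *Eef2*. *Thbs1* and *Col1a1* had ranges that overlapped, but *Thbs1* was above *Col1a1* within each of the 4 libraries. The order of the other 15 pairs changed between libraries.

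*Rn18s-rs5*, the 18S ribosomal RNA entry of the annotation, was the exception to this evenness. It stood at 6143 and 6062 TPM in libraries 1_1 and 1_2, but at 9874 and 13812 in libraries 2_1 and 2_2. Ribosomal RNA has no poly(A) tail, and in these libraries the rRNA class made up 0.431% ± 0.171 of normalized counts.

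Protein-coding genes took 98.0% ± 0.260 of the normalized counts and 93.6% ± 0.544 of the TPM. Of 16548 protein-coding genes in the table, 13287 were over the floor in all libraries. Long noncoding RNAs held 0.904% ± 0.0919 of normalized counts, with 1410 of 5066 over the floor. *H19*, an imprinted RNA of fetal tissue, led them with 1520, 1364, 2341 and 2173 TPM. *Malat1*, a nuclear RNA, followed at 452 ± 85.8 TPM, *Norad* at 226 ± 11.7 and *Meg3*, another imprinted RNA, at 211 ± 38.9. All pseudogene classes together had 0.584% ± 0.0210 of the normalized counts but 3.54% ± 0.116 of the TPM, and they are short, with a median of 636 bases against 4172 for protein-coding genes. Genes under 200 bases, 1038 in number, had 0.0187% of normalized counts and 0.7645% of TPM, so the per-kilobase levels of such genes rest on few reads.

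The 30 genes of the mitochondrial chromosome together had 1.57% ± 0.0395 of normalized counts and 49150 ± 691 TPM. Within the group the levels were uneven. The genome encodes 13 proteins of the respiratory chain, and the RNA of all of them is cut from long common transcripts. Of these, 7 were high in every library: *mt-Co1*, *mt-Cytb* with 8358 ± 57.9 TPM, *mt-Nd1* with 6087 ± 218, *mt-Nd5* with 4323 ± 131, *mt-Nd6* with 3745 ± 66.7, *mt-Nd2* with 2965 ± 50.8 and *mt-Nd4* with 2723 ± 37.3. The other 6 were low in every library: *mt-Co2* had 141 ± 21.6 TPM, *mt-Atp6* 90.6 ± 13.7, *mt-Co3* 69.6 ± 3.18, *mt-Nd4l* 32.2 ± 4.98, *mt-Nd3* 4.70 ± 1.10 and *mt-Atp8* 3.31 ± 0.855. Those 6 lie side by side on the mitochondrial chromosome. In the mouse reference NCBIM37 a copy of that stretch stands on chromosome 1, and 98.9% to 100% of the 75-base windows of the low genes are found there letter for letter. Of the high genes, *mt-Nd4* had 61.5% of its windows there, *mt-Co1* had 27.5%, and the other 5 had 0. Annotated pieces of the copy held few reads as well. *Gm28661*, at chr1:24653966-24654646 in the coordinates of the deposited table (mm39), had 496 ± 39.8 normalized counts, and *Gm28437*, at chr1:24652270-24653052, had 261 ± 21.7. How the counting step treated reads that match both places was not tested, and the levels of these 6 genes are uncertain.

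**Figure D2:**
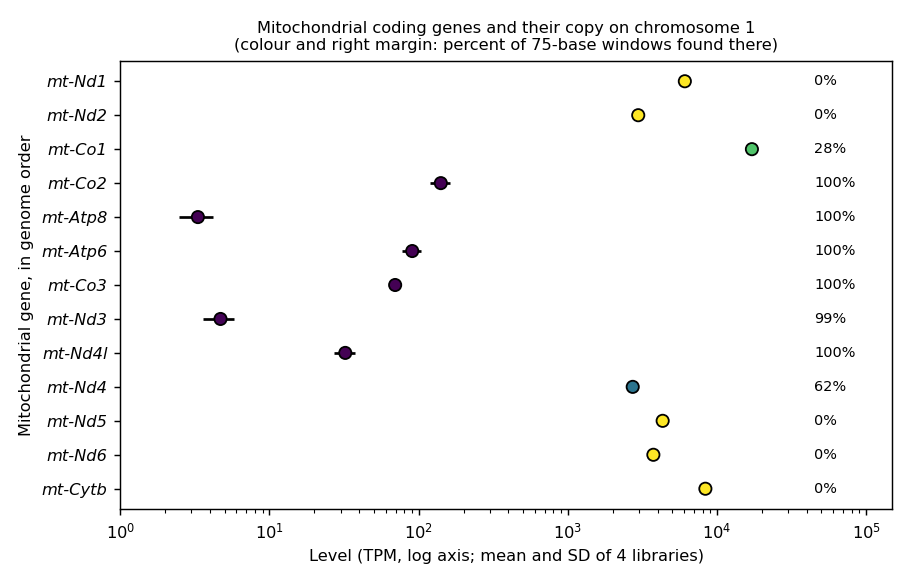
Horizontal axis: mean level in TPM on a log scale, with SD of 4 libraries; rows are the 13 mitochondrial coding genes in genome order, and colour and right margin give the percent of 75-base windows also found on chromosome 1. The 6 genes at 98.9% or more sit at 141 TPM or lower, and the 7 others at 2723 TPM or higher.

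Of the single lists, cytosolic ribosomal proteins had the largest sum per kilobase, while their share of normalized counts, 3.37%, was below that of matrix glycoproteins (6.63%) and fibrillar collagens (5.70%). The 82 genes of the list summed to 81643, 79315, 81571 and 72336 TPM in libraries 1_1, 1_2, 2_1 and 2_2, and 81 of them were over the floor in all libraries. *Rplp1* led with 8953 ± 644 TPM, followed by *Rplp0* with 4360 ± 149 and *Rps3a1* with 3026 ± 181. The 12 translation factors added 21943 ± 799 TPM, most of it from *Eef1a1* and from *Eef2*, the translocation factor, with 3810 ± 35.1. Ribosomal protein genes have many processed copies in the genome, and for some the copy carried more signal than the gene. *Rps10* stood at 7.13 ± 1.27 TPM and its copy *Rps10-ps2* at 1172 ± 91.2. *Rpl17* stood at 255 ± 28.9 TPM and its copy *Rpl17-ps10* at 1503 ± 117, and *Rps12* at 645 ± 104 beside *Rps12-ps3* at 1505 ± 140. In NCBIM37, 75.6%, 84.2% and 98.0% of the 75-base windows of these 3 transcripts occur elsewhere in the genome. The median over 80 ribosomal protein genes with a transcript was 46.8%, against 0 for the 30 genes of the actin cytoskeleton list. The level of a single ribosomal protein gene is therefore uncertain. Of the 35388.8 TPM in pseudogenes, 31.7% lay in entries named as ribosomal protein copies.

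The 4 lists of structural matrix genes (fibrillar collagens, network and beaded collagens, glycoproteins, and proteoglycans with hyaluronan synthases) held 76 genes, 75 of them over the floor. Together they made up 15.0% ± 0.280 of all normalized counts and 81169 ± 2451 TPM, close to the sum of the ribosomal proteins. All 44 collagen genes in the table held 6.91% ± 0.303 of normalized counts, and 39 of them were over the floor.

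Among fibrillar collagens, type I led, with *Col1a1* at 14184 ± 732 TPM and *Col1a2* at 4902 ± 424. Type V, which sets fibril width, followed with *Col5a1* at 2042 ± 139 and *Col5a2* at 1659 ± 140 TPM. Type III stood between them, with *Col3a1* at 1903 ± 98.6. *Col2a1* and *Col11a1*, fibrillar collagens of cartilage, were also present, at 635 ± 295 and 531 ± 122 TPM. The lowest of the list was *Col24a1*, at 0.854 ± 0.0552 TPM. Of network and beaded collagens, *Col12a1* was highest at 1340 ± 55.0 TPM, with the type VI chain *Col6a1* at 1199 ± 138. *Col6a5* had 0, 1, 0 and 0 reads and was the one gene of these collagens at the floor. The basement membrane pair *Col4a1* and *Col4a2* stood at 241 ± 9.61 and 266 ± 13.98 TPM, while *Col4a3* and *Col4a4*, chains of specialised membranes such as that of the kidney, stood at 0.220 ± 0.0499 and 0.317 ± 0.0954.

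Collagen repeats a glycine once in every 3 residues, and since glycine is encoded by GGN, the repeat can be read from the nucleotides. The first stretch of 90 bases in which 1 codon in 3 begins with GG without a break is shown for the 2 marker collagens, from GENCODE coding sequence on NCBIM37, with the glycine codons in capitals. It starts at coding base 295 in *Col1a1* and at coding base 310 in *Col3a1*.
Col1a1: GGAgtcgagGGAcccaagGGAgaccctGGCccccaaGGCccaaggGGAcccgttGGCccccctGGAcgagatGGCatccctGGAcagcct
Col3a1: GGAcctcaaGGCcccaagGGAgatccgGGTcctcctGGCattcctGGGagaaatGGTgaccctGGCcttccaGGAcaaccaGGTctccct
The longest unbroken repeat lies further on. It held 338 glycine codons in *Col1a1* and so spanned 1014 codons, 69.8% of the 1453 in the coding sequence. In *Col3a1* it held 344 and spanned 1032 codons, 70.5% of 1464. The same codons were counted over the whole transcriptome. GGN made up 6.61% of codons in the average detected gene (n = 12926 genes with a coding sequence) and 8.16% in the 100 most abundant. When each codon was weighted by the TPM of its gene, GGN made up 8.80% ± 0.0661 (SD of 4 libraries), and without the 39 detected collagen genes it was 7.12% ± 0.00969. Proline codons (CCN) stood at 6.06% in the average gene, 7.22% ± 0.0649 with each codon weighted, and 6.17% ± 0.0302 without collagens. Weighting by codon also gives long genes more weight than the average over genes does. With each gene weighted by its TPM instead, GGN made up 7.69% ± 0.0340 and CCN 6.14% ± 0.0476. CCN stood at 6.18% in the 100 most abundant genes and 5.57% in the 200 most abundant. These shares are descriptions with no test.

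The enzymes and carriers that mature collagen were all over the floor, 22 of 22, and summed to 17327 ± 648 TPM. *Lox* had 8212, 8497, 6714 and 7036 TPM, more than any other of the list. An entry of the other strand, *Gm41724*, overlaps it over 1207 bases and had 62.4 TPM, and whether the counting used strand is not certain. *Serpinh1*, the collagen chaperone of the endoplasmic reticulum, stood at 4213 ± 172 TPM. *P4hb*, a subunit of prolyl hydroxylase, had 1584 TPM, between 1520 and 1649 over libraries, and *Pcolce*, the enhancer of procollagen cleavage, 1065 ± 109. The lysyl oxidase relatives were lower, from 434 ± 19.2 for *Loxl1* to 66.9 ± 1.58 for *Loxl4*.

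Glycoproteins of the matrix summed to 38643 ± 1523 TPM, with all 25 over the floor. After *Thbs1* and *Fn1* came *Sparc*, a collagen-binding protein, with 6499 ± 376 TPM, and *Ccn1*, a matricellular target of YAP signaling, with 1366 ± 97.0. *Eln*, elastin, was at 430 ± 1.72 TPM, between 428 and 432 TPM over libraries. *Tgfbi*, an adhesion protein often high in cultured fibroblasts, was the lowest of the list at 8.73 ± 1.06. Among proteoglycans, *Bgn* (biglycan) led with 3081 ± 113 TPM and *Fmod* (fibromodulin) followed with 2251 ± 261. *Dcn*, decorin, which is abundant in muscle connective tissue, stood at 129, 112, 163 and 159 TPM, so biglycan was above decorin in every library by more than the spread of either. *Ogn*, osteoglycin, had 1022, 948, 1637 and 1621 TPM and differed by sample number.

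Of 22 proteases and inhibitors, 19 were over the floor. Inhibitors led, with *Timp2* at 3097 ± 287 TPM and *Serpinf1* at 1692 ± 70.5, ahead of the lysosomal protease *Ctsd* at 1131 ± 34.2. The inhibitors *Timp3* and *Timp1* had 934 ± 20.8 and 823 ± 68.7 TPM. The highest metalloproteinases were the membrane enzyme *Mmp14*, at 488 ± 15.1, and the gelatinase *Mmp2*, at 344 ± 71.4. *Mmp9* had 0, 1, 1 and 1 reads, *Timp4* had 5, 6, 4 and 2, and *Mmp10* had none.

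**Figure D3:**
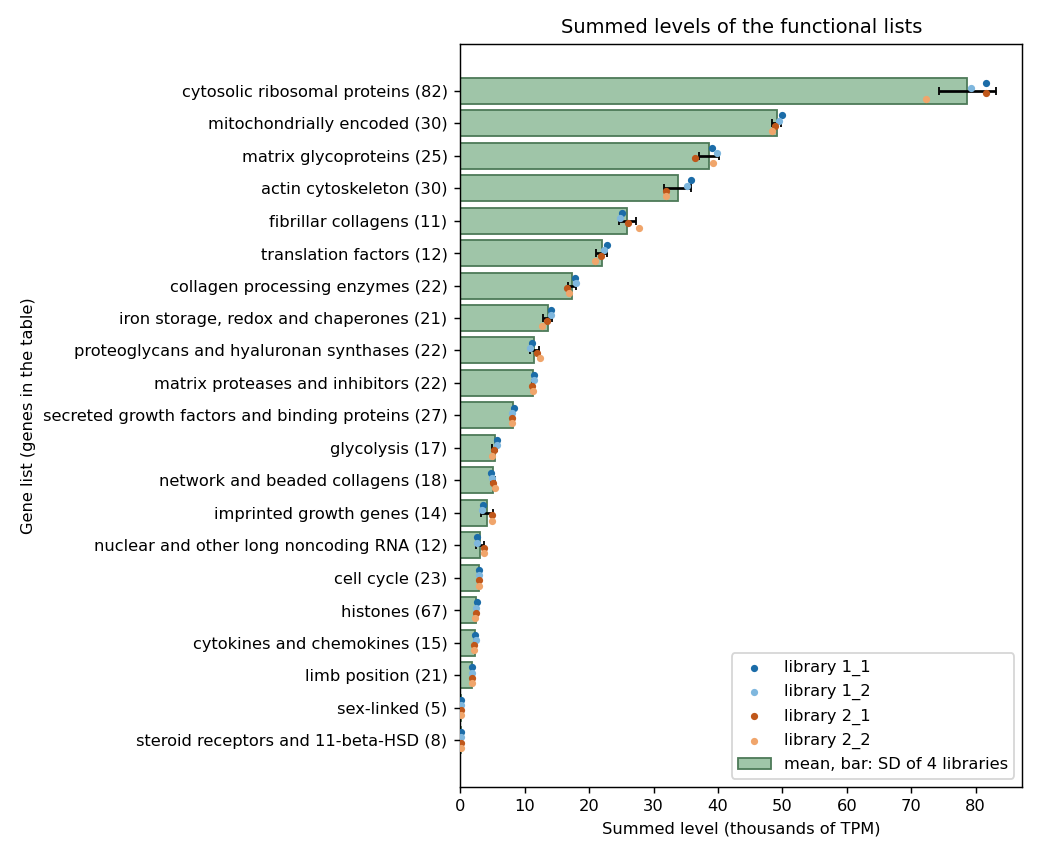
Horizontal axis: summed level in units of 1000 TPM for each functional list, with the number of genes in brackets; bars are means with SD of 4 libraries and points are libraries. On this scale ribosomal proteins (78716 TPM), the mitochondrial genes (49150) and matrix glycoproteins (38643) are the largest sums, and steroid receptors (73.4) the smallest.

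Actin cytoskeleton genes summed to 33745 ± 2062 TPM, with 30 of 30 over the floor. *Acta2*, the smooth muscle actin that marks myofibroblasts, had the highest mean, from 5476, 5427, 4078 and 4029 TPM. *Vim* (vimentin) had 4671 ± 135, *Actb* 3718 ± 254 and *Actg1* 3483 ± 272, and the libraries of *Acta2* and *Vim* overlapped. Another 2 members stood far below the rest. *Tagln*, which travels with *Acta2* in contractile cells, had 18.8, 17.7, 17.7 and 14.7 TPM. It is overlapped over 3627 bases by *Gm48529*, a noncoding gene of the other strand with 3.90 TPM, and by the end of *Pcsk7* over 108 bases, and none of the 75-base windows of its transcript occurs elsewhere. *Myl12b*, a regulatory light chain of myosin, had 6.37 ± 0.956 TPM and lies inside *Gm49909*. The same gene also overlaps *Myl12a*, over 8553 bases, and *Myl12a* stood at 302 ± 23.7 TPM. The part of these overlaps in the levels was not tested.

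Glycolysis genes summed to 5348 ± 397 TPM, led by *Pkm* (pyruvate kinase) at 864 ± 83.5, *Aldoa* (aldolase) at 841 ± 57.9 and *Ldha* (lactate dehydrogenase) at 782 ± 67.2. *Gapdh*, usually among the most abundant RNAs, stood at 5.89, 6.61, 14.2 and 6.38 TPM. In NCBIM37, 85.4% of the 75-base windows of its transcript occur elsewhere, in a genome with many *Gapdh* pseudogenes. *Actg1* had 95.3% of its windows elsewhere and *Pgk1* 91.4%, at 3483 and 612 TPM. The part of such copies in these levels was not tested. Ferritin light chain *Ftl1* led the stress and chaperone list at 2932 ± 259 TPM, and *Hsp90ab1* followed at 1825 ± 22.2.

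The markers of other cell types were mostly at or near the floor. Of 8 myogenic progenitor genes measured, 2 were over the floor, and their summed level was 1.13 to 1.75 TPM. *Pax7*, the satellite cell factor, had 0, 0, 3 and 0 reads, *Myod1* had 3, 3, 4 and 0 and *Mymx* none. *Acta1*, skeletal muscle actin, stood at 57.1 ± 9.88 TPM, while the next of the muscle list, *Tnnt3*, had 3.71 ± 1.37 and *Myh8* 5, 1, 0 and 0 reads. Actin genes have similar coding sequences, but in NCBIM37 none of the 75-base windows of the *Acta2* transcript occurs elsewhere letter for letter. Whether reads of *Acta2* were counted under *Acta1* was not tested. *Myf5*, *Ckm* and *Tnnc2* had no entry in the table. Every gene in the table had a read in at least 1 of the 8 libraries it covers. Whether genes without an entry had no reads was not tested.

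Of 12 macrophage genes listed, 8 had an entry in the table and 4 were over the floor. The summed level was 25.2 to 30.1 TPM, most of it *Lyz2* (lysozyme) at 20.4 ± 3.61. *Itgam*, *C1qa*, *C1qb* and *C1qc* had no entry. *Adgre1* and *Tyrobp*, both of the macrophage list, had no read in any library, and *Ptprc*, the pan-leukocyte marker, had 2, 1, 0 and 0. Of 9 lymphocyte genes listed, 4 had an entry and none was over the floor. Of 12 endothelial genes, 8 were over it, led by *Tek*, the angiopoietin receptor, at 15.4 ± 1.11 TPM and *Erg* at 5.18 ± 1.71. The defining *Pecam1* was at 0.171 ± 0.0608 and *Cldn5* had 0, 0, 0 and 1 reads. Of 8 epithelial genes listed, 7 had an entry and 2 were over the floor, *Krt10* at 3.26 ± 0.460 TPM and *Cdh1* at 0.491 ± 0.208. In bulk RNA, few cells of a type and little RNA per cell cannot be told apart, and the same holds for all mixtures below.

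**Figure D4:**
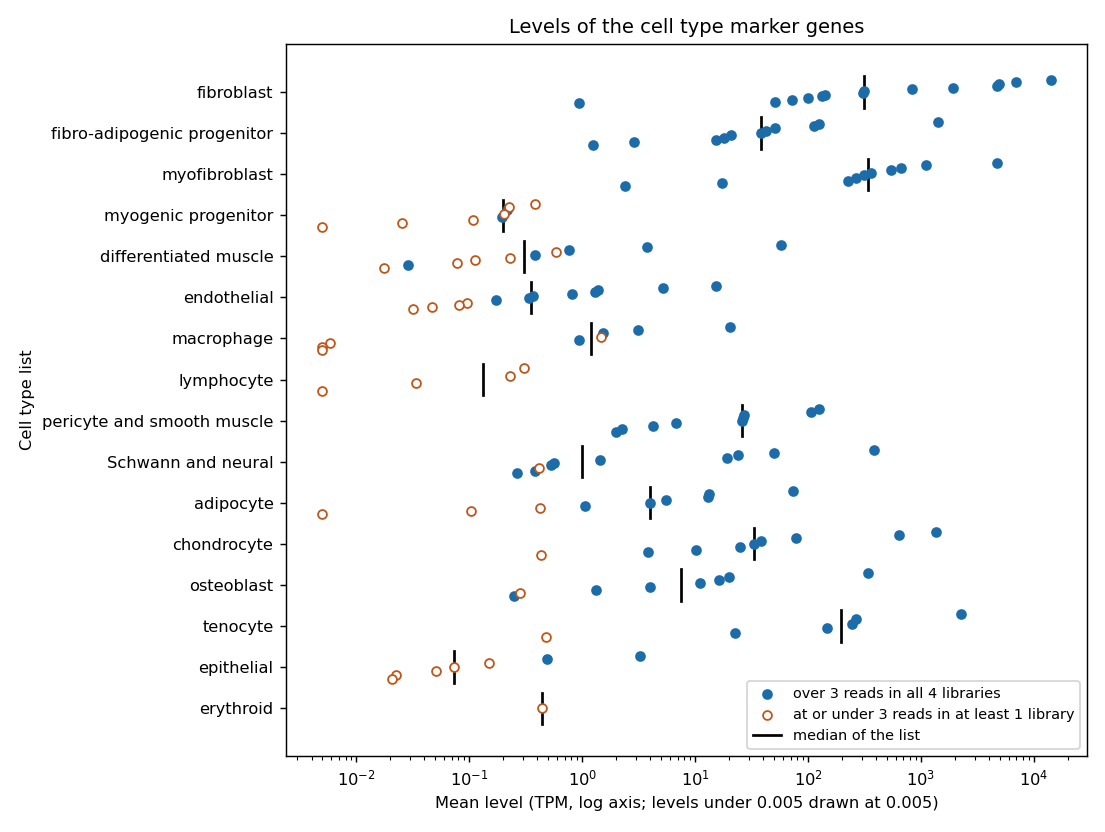
Horizontal axis: mean level in TPM on a log scale for every measured gene of each cell type list; filled points are over 3 reads in all 4 libraries, open points are not, and black lines are list medians. Fibroblast, progenitor, myofibroblast, tenocyte and chondrocyte genes reach above 1000 TPM, while myogenic, lymphocyte and epithelial genes stay under 4 TPM.

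Mesenchymal lineages near the fibroblast were another matter. All 14 fibroblast genes were over the floor and summed to 34596 ± 1323 TPM, with *Fap*, the fibroblast activation protein, the lowest at 0.929 ± 0.355. All 11 genes of fibro-adipogenic progenitors were over it as well. *Ly6a*, which encodes the Sca-1 antigen, stood at 1569, 1596, 1320 and 1199 TPM and *Osr1*, a factor of limb connective tissue, at 114 ± 10.1, whereas *Pi16* and *Dpp4*, markers of a progenitor state, were at 2.87 ± 0.414 and 1.24 ± 0.351. Of 6 tendon genes, 5 were over the floor and at 10 TPM or more, and *Kera*, keratocan, had 3, 8, 9 and 5 reads. *Tnmd*, tenomodulin, had 266 ± 12.9 TPM and *Scx*, the tendon factor scleraxis, 148 ± 13.2. Cartilage genes reached 8 of 9 over the floor, with *Comp*, a pentameric matrix protein that tendon also makes, at 1352 ± 43.0 TPM and *Sox9*, the cartilage factor, at 78.5 ± 8.30. *Matn1*, restricted to cartilage, had 0, 2, 5 and 12 reads. Of bone genes, *Spp1* (osteopontin) stood at 340 ± 52.0 TPM and *Sp7* (osterix) at 16.2 with an SD of 4.603, while *Dmp1*, an osteocyte gene, had 7, 3, 3 and 6 reads. Pericyte genes were all over the floor, 9 of 9, with *Cspg4* at 125 ± 15.5 TPM and *Rgs5*, the more restricted marker, at 6.72 ± 2.55. Of 9 adipocyte genes, 6 were over it, the factor *Cebpa* at 73.0 ± 15.8 and the late gene *Adipoq* at 4.01 ± 1.81, and *Lep*, leptin, had no read. Of 10 Schwann and neural genes, 9 were over the floor and 4 at 10 TPM or more. *Pmp22*, a myelin protein that fibroblasts also make, had 382 ± 12.0 TPM, *Tubb3*, a neuronal tubulin, 50.2 ± 5.12, *S100b* 24.1 ± 2.70 and the adhesion molecule *Ncam1* 18.96 ± 3.64. *Sox10*, which defines Schwann cells, had 0.565 ± 0.259. *Alas2*, the only gene with an entry among 6 erythroid genes listed, had 4, 8, 3 and 10 reads.

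Genes of limb position were all over the floor, 21 of 21. *Pitx1* and *Tbx4*, hindlimb factors, stood at 218 ± 25.0 and 61.4 ± 4.04 TPM, and *Tbx5*, the forelimb factor, at 8.95 ± 0.457. *Prrx2* led the list with 478 ± 38.9 TPM, with *Twist1* at 232 ± 17.3. Hox genes ranged from 96.6 ± 15.5 TPM for *Hoxa10* to 1.99 ± 0.452 for *Hoxd11*. Y-linked *Ddx3y* had 71.3, 69.0, 44.4 and 45.5 TPM and *Eif2s3y* 50.0, 50.4, 49.0 and 50.1. *Uty* and *Kdm5d* had 10.2 ± 1.09 and 9.49 ± 0.888, and *Xist*, the RNA of the inactive X, had 5, 4, 3 and 6 reads.

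Genes of dividing cells and cell cycle inhibitors were both present. All 23 cell cycle genes were over the floor, with *Mki67* at 48.9 ± 2.34 TPM, *Top2a* at 60.5 ± 1.12 and *Cdk1* at 44.2 ± 0.777. *Cdkn1a*, encoding p21, was the highest of the list at 578 ± 22.6, and *Cdkn2b* and *Cdkn2a*, from the Ink4 locus, had 385 ± 23.3 and 226 ± 21.7. Of the histone genes, linker histones included, 32 of 67 were over the floor, with a sum of 2472 ± 110 TPM, and the highest was *H3f3b*, a histone gene whose RNA carries a poly(A) tail, at 409 ± 22.8. Most histone RNA of dividing cells has no such tail and is captured poorly by this library type.

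Secreted factors summed to 8132 ± 139 TPM, with 27 of 27 over the floor. Insulin-like growth factor binding proteins led: *Igfbp2* had 1557 ± 218 TPM, *Igfbp7* 1502 ± 186 and *Igfbp4* 1056 ± 40.0. The growth factors themselves were lower, with *Igf1* at 21.7 ± 5.12 and *Igf2* at 5.39, 4.80, 10.5 and 10.95. Among TGF-beta ligands, *Tgfb3* was highest at 295 ± 38.7, with *Tgfb2* at 53.4 ± 7.90 and *Tgfb1* at 24.8 ± 1.99. Of cytokines, *Mif* had 755 ± 105 TPM, *Csf1* (the macrophage growth factor) 620 ± 68.7 and *Ccl7* 175 ± 36.4, and *Il6* had 0.987 ± 0.522. *Penk*, preproenkephalin, an opioid precursor that fetal mesenchyme also expresses, was rank 28 of all genes at 1919, 1630, 3770 and 3652 TPM. It was named after its values were seen.

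The receptors that the treatments of the study act on were unequal. *Nr3c1*, the glucocorticoid receptor, had 56.04, 61.3, 61.7 and 65.8 TPM. *Nr3c2*, the mineralocorticoid receptor, had 0.411, 0.564, 1.35 and 1.48 TPM, so *Nr3c1* was above it in every library. Of the estrogen receptors, *Esr2* stood at 1.57 ± 0.365 TPM and *Esr1* at 0.881 ± 0.146, and *Pgr*, the progesterone receptor, stood at 0.169 ± 0.0842. Of the enzymes that interconvert glucocorticoids, *Hsd11b1* had 1.25 ± 0.414 TPM and *Hsd11b2*, which inactivates them, had 11, 2, 10 and 1 reads.

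Variation between libraries depended on level. The median coefficient of variation was 32.5% among the 1562 genes over the floor at less than 1 TPM and 17.9% among the 5065 between 1 and 10 TPM. Among the 7641 genes between 10 and 100 TPM it was 6.87%, and among the 116 at 1000 TPM or more it was 5.63%. Libraries of different sample numbers lay farther apart than libraries of the same number. Libraries of the same number differed by a median of 0.0982 and 0.119 on the log2 scale, and libraries of different numbers by 0.128 to 0.158. The number may stand for the mouse or the plate, and the 2 cannot be told apart here. Since nothing says which samples came from separate animals, the p-values below measure only the spread among these 4 libraries.

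Tested gene by gene with limma on log2(normalized count + 1), over all 27319 genes, sample 2 against sample 1 gave no call at an adjusted p of 0.05 and a 2-fold change (0% called), although 3600 genes had an unadjusted p under 0.05 and the smallest adjusted p was 0.0823. On simulated data this fit recovered fewer of the planted changes than edgeR and made more false calls, so the count of 0 does not show that no gene differed. The simulated counts were drawn with dispersions fitted by edgeR, and changes were planted only in genes with a mean of at least 10. That setting favors edgeR, and limma made 155 false calls there but 0 calls on the real data, so the simulation does not rank the tests. edgeR's quasi-likelihood test, on the reads recovered from the normalized counts, called 117 of 15397 genes at those thresholds (0.76%), 76 higher in sample 2 (0.494%) and 41 lower (0.266%). DESeq2 called 64, of which 63 were among the 117, and limma on genes with a mean of at least 10 called 123, of which 112 were. The genes below are described with edgeR, a choice made after these counts were seen, and fold changes are sample 2 over sample 1.

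Some genes of cartilage matrix were called higher in sample 2. *Col2a1*, the collagen of cartilage, had 22833 and 20976 normalized counts in sample 1 and 49260 and 50144 in sample 2, without overlap. Its log2 fold change was 1.19 (adjusted p of 1.46e-09; limma on the filtered genes gave 1.18 with an SE of 0.0570). *Cnmd*, chondromodulin, had 622, 441, 1840 and 1552 normalized counts in libraries 1_1, 1_2, 2_1 and 2_2, a log2 fold change of 1.67 (edgeR adjusted p of 4.88e-08). *Col11a2*, a cartilage fibril collagen, had 616, 484, 1552 and 1510, a log2 fold change of 1.48 (edgeR adjusted p of 1.75e-08). Of 8 chondrocyte genes tested, 3 were called higher (*Col2a1*, *Col9a1* and *Col11a2*; 0.494% of all genes tested were) and 0 lower, and the median log2 fold change was 0.70 against 0.00 for all genes tested. *Comp* and *Sox9*, with log2 fold changes of -0.08 and 0.16, were not called (edgeR adjusted p of 0.427 and 0.266). *Matn4*, *Ucma*, *Col9a2* and *Col9a3*, further cartilage genes outside the list and named after their values were seen, were called higher as well, with log2 fold changes of 1.57, 1.75, 1.06 and 1.01.

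None of the 10 myofibroblast genes was called at a 2-fold change, but 6 were lower by adjusted p alone and 0 higher, where 3.23% and 3.7% of all genes tested were. *Acta2* had 75817 and 73217 normalized counts in sample 1 and 55014 and 52587 in sample 2, a log2 fold change of -0.46 (edgeR adjusted p of 1.76e-05). *Actg2*, the enteric smooth muscle actin, had a log2 fold change of -0.90 and *Cnn1*, calponin, of -0.70 (edgeR adjusted p of 4.14e-08 and 5.99e-07). Of 9 pericyte and smooth muscle genes, 0 were called, 5 were lower by adjusted p and 0 higher, with a median log2 fold change of -0.63. *Myh11*, the smooth muscle myosin, had -0.94 (edgeR adjusted p of 1.57e-06). *Rgs4*, a brake of G protein signaling, had 2309, 2535, 977 and 901 normalized counts, and *Thbs4*, a thrombospondin of tendon, had 6684, 6607, 3164 and 3350. Both were called lower, with log2 fold changes of -1.36 and -1.02 (edgeR adjusted p of 3.03e-09 and 4.55e-09).

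**Figure D5:**
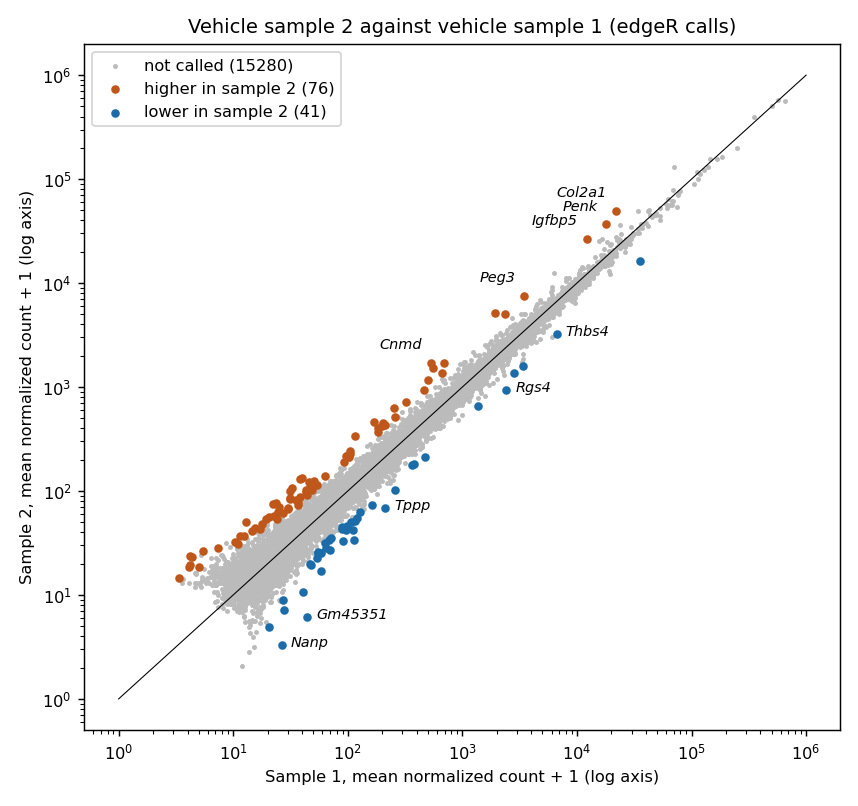
Axes: mean normalized count plus 1 in sample 1 (horizontal) and sample 2 (vertical), both log scales, for the 15397 genes tested with edgeR; orange and blue points are the 76 genes called higher and the 41 called lower in sample 2. Most genes lie on the line of equal counts, and among abundant genes *Col2a1*, *Penk* and *Igfbp5* lie above it and *Thbs4* below.

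Imprinted growth genes leaned the same way as cartilage genes. Of 14 tested, 3 were called higher in sample 2 (*Peg3*, *Cdkn1c* and *Igf2*) and 0 lower, 9 were higher by adjusted p alone, where 0.494% and 3.7% of all genes tested were, and the median log2 fold change was 0.39. *Peg3*, a paternally expressed zinc finger gene, had 3465, 3484, 7440 and 7735 normalized counts (log2 fold change of 1.14, edgeR adjusted p of 1.62e-09). *Cdkn1c*, the maternally expressed cell cycle inhibitor p57, had 685, 638, 1407 and 1309 (1.04 on the log2 scale, edgeR adjusted p of 1.51e-07). *H19* had a log2 fold change of 0.61 and *Mest* of 0.67 (edgeR adjusted p of 1.09e-05 and 9.55e-07). Both paternally and maternally expressed genes were among them.

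Among secreted factors, *Igfbp5* and *Ptn* (pleiotrophin) were called higher, with 12735, 11559, 25536 and 27283 normalized counts for *Igfbp5* and 2537, 2188, 5211 and 4969 for *Ptn*. *Penk* was called higher at 1.03 on the log2 scale (edgeR adjusted p of 4.88e-08). *Nr3c2* was called higher at 1.51 (edgeR adjusted p of 0.0127) on few reads, with a mean of 19.6 normalized counts in sample 1 and 55.3 in sample 2, and DESeq2 did not call it (adjusted p of 0.0802). Many of the genes with the largest fitted changes were at low levels in at least 1 sample number. *Tppp*, *Gm44126*, *Alkal1* and *Rab11fip4* were not, and the lower of their 2 means ranged from 31.8 to 66.98 normalized counts. *Nanp*, a sialic acid phosphatase, had 28.5, 22.4, 2.44 and 2.15 normalized counts, the last 2 at or under the floor. *Gm45351* had 43.6, 42.9, 4.88 and 5.37. On the other side, *Vwc2*, a BMP-binding protein, had 2.52, 3.90, 31.7 and 13.95 and *Trpv6*, a calcium channel, had 0.839, 5.85, 22.0 and 22.5. The other genes of the rule that were higher were *Adam32*, *Rbpjl*, *Brme1*, *Erich6*, *Ibsp*, *Gm7535*, *Syt1* and *Rab11fip4*. The first 4 of them had means of 3.14 to 4.47 normalized counts in sample 1, near the floor, and of 17.4 to 25.3 in sample 2, so they passed the filter through sample 2 and their fold changes are not ranked. *Vwc2*, *Trpv6* and *Ibsp* also passed the filter through sample 2, and *Nanp* and *Gm45351* passed it through sample 1. Limma on the filtered genes did not call *Brme1* and *Erich6*. DESeq2 gave no adjusted p for either of them, nor for *Nanp*, *Gm45351*, *Vwc2*, *Trpv6*, *Adam32*, *Rbpjl* and *Ibsp*. These genes were therefore not assessed by DESeq2. Those lower were *Slc9a3*, *Acot4*, *Slc16a11*, *Gm11223*, *Gm44126*, *Peak1os*, *Tppp* and *Alkal1*. Of these, *Slc9a3*, *Acot4*, *Slc16a11* and *Peak1os* had means of 3.90 to 9.71 normalized counts in sample 2 and of 19.5 to 39.8 in sample 1. They passed the filter through sample 1. DESeq2 gave no adjusted p for *Slc9a3*, *Acot4* and *Peak1os*, and it did not call *Slc16a11* (DESeq2 adjusted p of 0.0597). *Tppp*, a tubulin-binding protein, had means of 210.2 and 66.98 normalized counts and was called by edgeR, DESeq2 and limma on the filtered genes. *Rn18s-rs5*, the 18S entry, moved with the sample number too, at 0.92 on the log2 scale (edgeR adjusted p of 5.62e-06), as did *Gm10123*, a short processed pseudogene with 1547, 2325, 4465 and 5756 normalized counts. Whether ribosomal RNA carryover has a part in the differences above was not tested.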

How the data were processed

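RNA of neonatal hindlimb fibroblasts was sequenced after poly(A) enrichment. The authors aligned reads with HISAT2 (version 2.0.5) and counted them with featureCounts (version 1.5.0-p3), per the submitters' processing notes, which name build mm39, while the published methods name another mouse build. The deposited values are signal values, reads per gene that the authors scaled by library size factors (normalized counts). All values used (100%) were whole multiples of the smallest value of their column within 0.01 of a read, so reads were recovered. Columns of the authors' own comparison and of group means were not used, and 0 columns without a sample were used.

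TPM was computed from the normalized count and the table's gene length. Sample 2 was compared with sample 1 by limma (version 3.58.1, pseudocount 1), edgeR (version 4.0.16) and DESeq2 (version 1.42.0) in R 4.3.3, with Benjamini-Hochberg adjustment over all genes tested, calling genes with an adjusted p up to 0.05 that changed by 1 or more on the log2 scale. All 3 were tested on simulated data. Depth was 19136812 to 28631000 reads, and intervals are SDs over libraries.

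The gene lists and the members were chosen with earlier results of these data known. Named genes are the 5 markers, the 20 largest by each scale, the 4 highest of each list with those at the floor, the steroid receptor and sex-linked lists, and the 10 largest called changes in each direction whose mean reached 10 and whose groups did not overlap; others are named for contrast, and a few genes of this rule are not reported here. Levels took alternatives of scaling, filter, averaging and libraries left out. Promoters were not searched for motifs, because 70 of the 100 most abundant coding genes matched a promoter entry, under the 80% set for such a check. Of 13275 detected coding genes outside the mitochondrial genome, 12926 had a coding sequence.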

Additional observations from a re-analysis of the deposited data

Results flagged for a closer look

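Of 107 quantities examined across the 4 libraries (list sums, class shares and the levels of the leading genes), 1 had a single library set apart by Dixon's ratio above its 95% critical value for 4 libraries. The summed level of the fibroblast list was 36561 TPM in library 2_2 and between 33690 and 34111 TPM in the others, a ratio of 0.853. Chance flags about 1 in 20 such quantities. *Col1a1*, *Fn1* and *Col1a2* were each highest in that library.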

How the results depend on the processing

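The count of genes differing between sample numbers moved with the test, the filter and the libraries used. With limma it was 0 with a pseudocount of 0.5, with TMM scaling, with a replicate block on the biological replicate number and without a fold threshold, but 123 with a mean of at least 10. edgeR called 117, DESeq2 64. Chosen after seeing the data, edgeR with the replicate block called 145 and edgeR without an expression filter 165. The labels give no shared batch for that number, and deviations from the group means correlated at 0.0764 between libraries 1_1 and 2_1. Whether libraries of the same replicate number shared a mouse, plate or batch cannot be told from this value. Leaving out 1 library gave 609 to 1146 calls with limma on all genes, 114, 117, 124 and 139 with edgeR and 131, 133, 159 and 166 with the filtered limma, with the lone library assumed to vary like the other pair; the cause was not tested.

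When levels were scaled over protein-coding genes outside the mitochondrial genome, the 100 largest genes held 26.8% of TPM, the fibroblast list summed to 38850.4 and fibrillar collagens to 29132 TPM, and protein-coding genes to 100% by construction. With genes of a mean of at least 10, the 100 largest held 28.8%, and the myogenic progenitor, lymphocyte and erythroid lists had no gene left and summed to 0. TMM scaling moved no list sum by as much as its SD, for 37 of 37 lists. The median and leaving out each library did not either, but with 4 libraries neither can move a mean by its SD. Those settings are therefore no check of the sums. Glycine codons made up 8.93% in the 50 most abundant genes and 8.98% in the 100 largest by normalized count.

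Limits: 4 libraries, reads that match several genes, uncertain strand, and lengths over all exons.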
